A study of Mus musculus with 8 samples.

Results

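The genes described here are 7 genes of cholesterol synthesis in the mouse: Hmgcs1, Idi1, Fdft1, Sqle, Lss, Cyp51 and Insig1. They were chosen by name, and every probe set annotated to one of them and to no other gene was read, which gave 19 of the 45101 probe sets on the array and 7 of the 18193 genes with a probe set of their own. Each of the 7 genes had at least 1 probe set bright enough for testing, and 17 of the 19 probe sets passed that filter. Enzymes of the synthesis pathway make up 6 of the 7, and Insig1 controls it. None of the 7 takes up cholesterol, so uptake genes are described from a separate list.

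The study measured polyadenylated RNA on 8 Affymetrix arrays to ask how loss of connexin 43 (gene Gja1), which forms gap junction channels between cells, affects gene expression around implantation. MII oocytes (mature, ovulation-ready eggs) gave 1 knockout (KO) and 1 wild type (WT) array, blastocysts 2 KO and 2 WT arrays, and implantation sites 1 KO and 1 WT array. The series title places the depletion in the oocyte; the promoter or Cre line that directs it, the genotype of the sire, the strain, the age of the mice and any pooling of animals are not given in the sources used here. Whether the replicate blastocyst arrays came from separate cultures or animals is not stated in the labels. The p-values of the test between KO and WT blastocysts therefore measure the spread between these arrays, which may be technical. Those of the fits on all 8 arrays also take in how far the KO minus WT difference varied between stages. Oocytes and implantation sites add no replicate spread there, with 1 array per genotype.

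Gja1 itself went against the label of 1 array. Its brightest probe set read 375 and 553 on the 2 blastocyst KO arrays, against 9835 on WT replicate 1; the array labelled WT replicate 2, at 574, sat at the level of the KO arrays. Results that use this array are therefore also given without it. In implantation sites Gja1 read 28105 in KO and 44493 in WT, and in oocytes 150 in KO and 126 in WT. Values are the authors' signal intensities, and a value below the brightest Bacillus control probe set of its array (100 to 560) is called below the control level. By that measure the brightest Gja1 probe set was below the control level on both oocyte arrays, so it gives no check of their labels. It was also below it on both blastocyst KO arrays, but above it on the array labelled WT replicate 2 (574 against 219). The implantation site arrays are labelled as embryo, but 1 of 8 inner cell mass markers in KO and 3 of 8 in WT were above the control level there (Sall4 in KO, Pou5f1, Zfp42 and Esrrb in WT), with Nanog, Sox2, Fgf4 and Tdgf1 below it on both. The summed signal of 8 decidua and stroma markers was 81128 in KO and 71247 in WT sites, against 1363 to 2904 on the other 6 arrays. Col1a1, Hand2 and Bmp2 gave most of the signal in sites. Not every marker was highest there: Prl8a2 was lower in both sites than on both oocyte arrays, and overlapped the blastocysts. Alpl was lower in both sites than on every blastocyst array, and overlapped the oocytes.

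Cells make cholesterol from acetyl-CoA through mevalonate, isoprene units, squalene and lanosterol. When sterols run low, the escort protein SCAP carries the SREBP transcription factors to the Golgi, where they are cleaved and go on to switch on most genes of the pathway; INSIG proteins hold SCAP back when sterols are plentiful. In the mouse ovary the oocyte is known to rely on its cumulus cells for much of its cholesterol synthesis, and after fertilisation the embryo needs sterols for membranes and for cholesterol-modified signals. In bulk RNA, fewer cells that express a gene and less RNA per cell cannot be told apart.

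The promoters of 4 members are shown because these genes moved in opposite directions between oocyte and blastocyst: Hmgcs1 and Insig1 were lower in blastocysts, and Lss and Cyp51 were higher. The sequences are RefSeq's for build GRCm38.p6, from 250 bases before to 50 after the annotated start, 5′ to 3′ on the strand of the gene. They lie at chr13:119690101-119690400 on the plus strand (Hmgcs1), chr5:28071162-28071461 on the plus strand (Insig1), chr10:76531355-76531654 on the plus strand (Lss) and chr5:4104648-4104947 on the minus strand (Cyp51). Capitals mark matches on either strand to 4 motifs: the core of the sterol response element (CACNCCAC), the CCAAT box (CCAAT), the GC box (GGGCGG) and the E-box (CACGTG).
Hmgcs1: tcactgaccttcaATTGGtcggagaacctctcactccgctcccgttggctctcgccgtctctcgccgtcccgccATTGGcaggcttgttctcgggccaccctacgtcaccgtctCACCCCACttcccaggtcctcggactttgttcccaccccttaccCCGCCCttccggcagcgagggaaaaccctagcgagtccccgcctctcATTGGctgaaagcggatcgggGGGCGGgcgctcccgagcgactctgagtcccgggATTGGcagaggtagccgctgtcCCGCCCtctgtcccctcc
Insig1: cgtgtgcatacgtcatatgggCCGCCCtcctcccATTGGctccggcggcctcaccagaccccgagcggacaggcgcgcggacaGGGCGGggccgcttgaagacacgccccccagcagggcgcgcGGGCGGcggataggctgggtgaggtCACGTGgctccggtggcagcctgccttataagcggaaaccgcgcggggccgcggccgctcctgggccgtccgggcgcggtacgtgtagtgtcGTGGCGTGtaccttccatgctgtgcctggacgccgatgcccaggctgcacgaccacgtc
Lss: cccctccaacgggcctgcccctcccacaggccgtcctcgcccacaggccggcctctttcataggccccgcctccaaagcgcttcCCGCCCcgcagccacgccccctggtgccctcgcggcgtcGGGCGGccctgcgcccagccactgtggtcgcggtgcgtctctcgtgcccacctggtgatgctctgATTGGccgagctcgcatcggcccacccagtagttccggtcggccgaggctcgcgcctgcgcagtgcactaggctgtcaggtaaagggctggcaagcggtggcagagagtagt
Cyp51: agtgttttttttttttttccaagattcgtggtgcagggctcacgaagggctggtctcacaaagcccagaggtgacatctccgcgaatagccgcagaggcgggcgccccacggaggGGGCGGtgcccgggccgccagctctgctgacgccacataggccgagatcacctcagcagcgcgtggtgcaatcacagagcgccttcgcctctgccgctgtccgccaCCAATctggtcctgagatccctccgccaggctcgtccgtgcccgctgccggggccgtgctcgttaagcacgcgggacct

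The sterol response element core was found in the Hmgcs1 window, at position -136 counted from 0 at the start, and in the Insig1 window on the opposite strand at position -9. It was not found in the windows of Lss, Cyp51 and Idi1, the other members with a promoter in the table, where 5 of the 7 members had one. Of 32851 RefSeq promoter windows of the same length, 6.2% held this core. A CCAAT box and a GC box were found in all 5 windows, against 37.4% and 35.7% of all windows. Hmgcs1 held 4 CCAAT boxes, Idi1 held 2, and Insig1, Lss and Cyp51 held 1 each. The E-box was found in the Insig1 window alone among the 5 (7.2% of all windows). No match overlapped another in the windows shown. A match describes the letters in these windows and is no evidence of binding.

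Between oocyte and blastocyst, 3 of the 7 genes were lower in blastocysts, 3 were higher, and Sqle did not pass the test. Insig1, the brake on SREBP processing, was lower 9.04-fold, and Hmgcs1, at the entry to the pathway, 5.48-fold. Lss and Cyp51, which make and then process lanosterol, were higher 7.49-fold and 4.04-fold by their measured means, in which the oocyte KO value of both was below the control level. Tests were limma fits across 11746 genes on all 8 arrays, with genotype as a term and p-values adjusted by Benjamini-Hochberg. Over all genes tested, 26.9% were higher and 18.6% lower in blastocysts, so calls in both directions were common. All 7 genes separated the blastocyst from the oocyte arrays, 4 upwards and 3 downwards, as did 32.7% and 24% of all genes. The median log2 difference was 0.83 for the 7 genes and 0.43 for all genes; the median of all genes was 0.26 with arrays scaled to a common median.

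**Figure D1:**
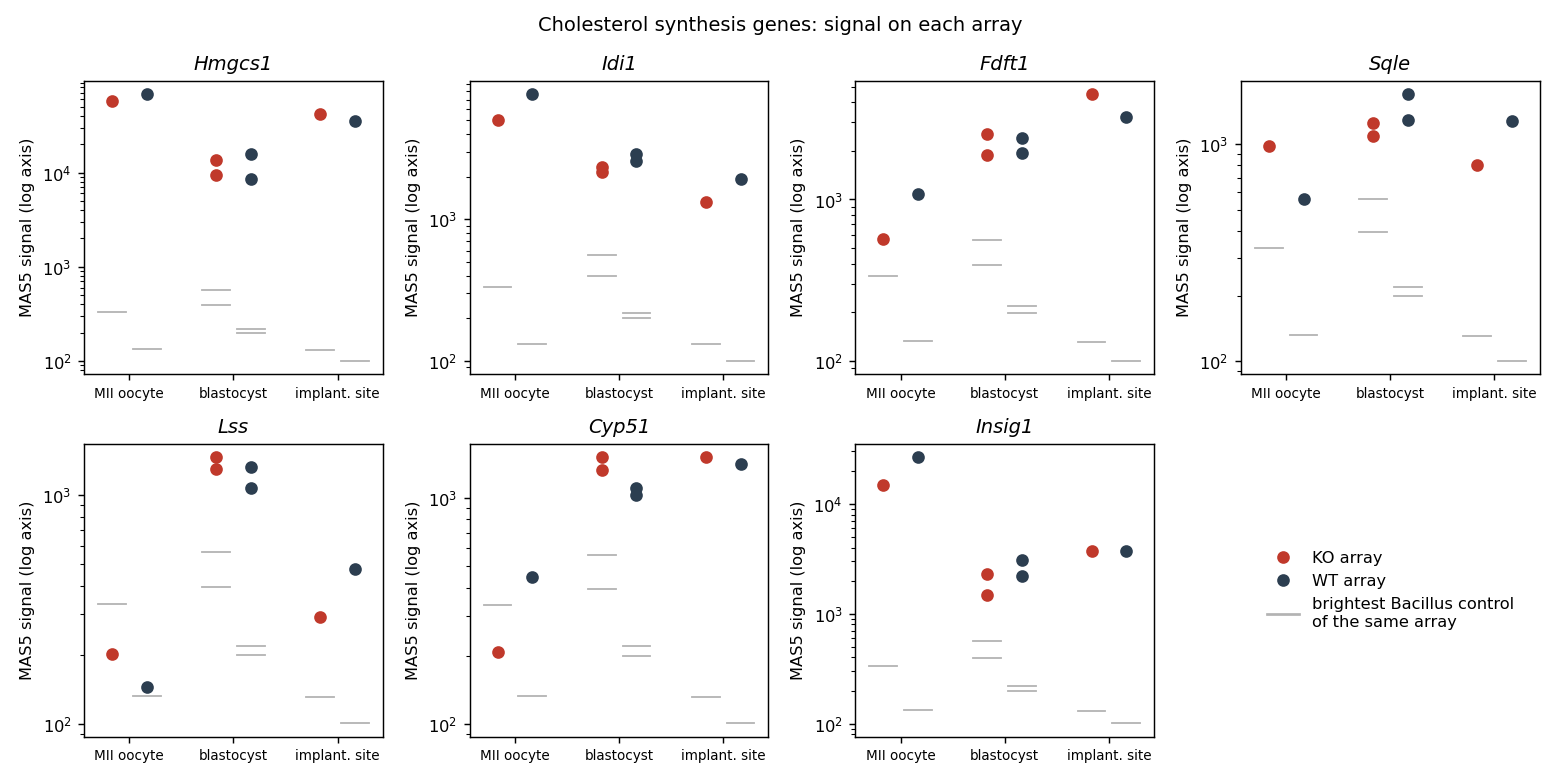
Signal of the probe set that represents each gene (log axis) on every array, by stage, with KO arrays in red left of WT arrays in dark blue and the brightest Bacillus control of each array as a grey line. Hmgcs1, Idi1 and Insig1 were brightest in oocytes, and Lss was brightest in blastocysts; Lss and Cyp51 on the oocyte KO array lay below the grey line.

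Hmgcs1 encodes the cytosolic HMG-CoA synthase, which builds the precursor of mevalonate. Its representing probe set read 57916 in KO and 67654 in WT oocytes, 13528 and 9373 in KO and 15735 and 8546 in WT blastocysts, and 42135 in KO and 35199 in WT implantation sites. Blastocysts were the low stage, with no overlap with either of the other stages, and KO and WT blastocysts overlapped. The log2 difference was -2.45 ± 0.37 (SE; adjusted p = 0.000223) for blastocyst against oocyte, and 1.75 ± 0.37 (adjusted p = 0.00381) for implantation site against blastocyst. Implantation sites against oocytes gave -0.70 ± 0.42, which did not pass the test (adjusted p = 0.22, 95% interval -1.63 to 0.23). Leaving out the array labelled WT replicate 2 made the first 2 values -2.28 (adjusted p = 0.00149) and 1.58 (adjusted p = 0.0196).

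Hmgcs1 has 5 probe sets, and each was also fitted as its own row over 19040 probe sets, a check chosen after the values were seen. The 4 bright ones were lower in blastocysts than in oocytes, with log2 differences of -2.45, -2.10, -1.91 and -1.27 (adjusted p of 0.0165 or less). They parted in implantation sites: 1433443_a_at and 1433444_at were higher than in blastocysts (1.75 and 1.05), 1433445_x_at did not pass (0.87, adjusted p = 0.0677), and 1433446_at read lower without passing (-0.71, adjusted p = 0.162). The mean of all 5 probe sets gave 0.67 (adjusted p = 0.108), which did not pass, so the call between implantation site and blastocyst rested on the choice of probe set. The result between implantation site and oocyte also depended on the probe set. There 1433446_at was called lower (-1.98, adjusted p = 0.00396). Probe sets 1433444_at and 1433445_x_at did not pass (both -1.05, adjusted p = 0.0581 and 0.0537). The fifth, 1441536_at, was above the control level on 3 arrays only. Over all probe sets in this fit, 43.5% were called between blastocyst and oocyte, and 35.4% between implantation site and oocyte.

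Idi1 encodes isopentenyl diphosphate isomerase, which interconverts the isoprene units that are joined downstream. It read 4991 in KO and 7615 in WT oocytes, 2146 and 2343 in KO and 2884 and 2586 in WT blastocysts, and 1321 in KO and 1919 in WT implantation sites. The 3 stages did not overlap, with oocytes highest and implantation sites lowest. Blastocysts were lower than oocytes by a log2 difference of -1.32 ± 0.28 (adjusted p = 0.00227), and implantation sites were lower than oocytes by -1.95 ± 0.32 (adjusted p = 0.000646). Implantation sites against blastocysts gave -0.64 ± 0.28 (adjusted p = 0.0933), which passed only after quantile normalization (-0.76, adjusted p = 0.0467). Its second probe set, 1423804_a_at, read 2666 and 4436 in KO and WT oocytes and differed less between blastocyst and oocyte (-0.69, adjusted p = 0.0839); for implantation site against oocyte it gave -1.09 (adjusted p = 0.0284).

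Fdft1 encodes squalene synthase, the first enzyme committed to sterols. Its representing probe set read 570 in KO and 1086 in WT oocytes, 2549 and 1882 in KO and 2404 and 1948 in WT blastocysts, and 4475 in KO and 3228 in WT implantation sites. The stages did not overlap and ran upwards from oocyte to implantation site. Blastocysts were higher than oocytes by 1.47 ± 0.35 on the log2 scale (adjusted p = 0.00498), and implantation sites were higher than oocytes by 2.27 ± 0.40 (adjusted p = 0.00112). Implantation sites against blastocysts gave 0.80 ± 0.35 (adjusted p = 0.0943). Without the oocyte KO array, the blastocyst against oocyte value was 0.92 (adjusted p = 0.103) and the call was lost.

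The other 3 probe sets of Fdft1 did not follow the first. Probe set 1438918_at read 213 in KO and 461 in WT oocytes, 843 and 837 in KO and 129 and 749 in WT blastocysts, and 174 in KO and 183 in WT implantation sites, so its first blastocyst WT array was far below the other 3. They were dimmer: 1438918_at was above the control level on 6 of 8 arrays, and 1448130_at and 1438919_x_at on 4 each. None of them was called in any stage comparison when fitted as its own row. For implantation site against oocyte, 1438918_at gave -0.81 and 1448130_at 0.02, against 2.27 for the representing one. Probe set 1438919_x_at was below the control level on both implantation site arrays and on the oocyte KO array, so it gets no fold. Its signals as deposited gave -3.21 without passing (adjusted p = 0.0791). The mean of all 4 probe sets put implantation sites below oocytes (-0.43, adjusted p = 0.621) and lost the call between blastocyst and oocyte (0.51, adjusted p = 0.472). The representing probe set carries the suffix x, which Affymetrix gives to sets with probes that can match other transcripts. The direction given for Fdft1 is that of this probe set.

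**Figure D2:**
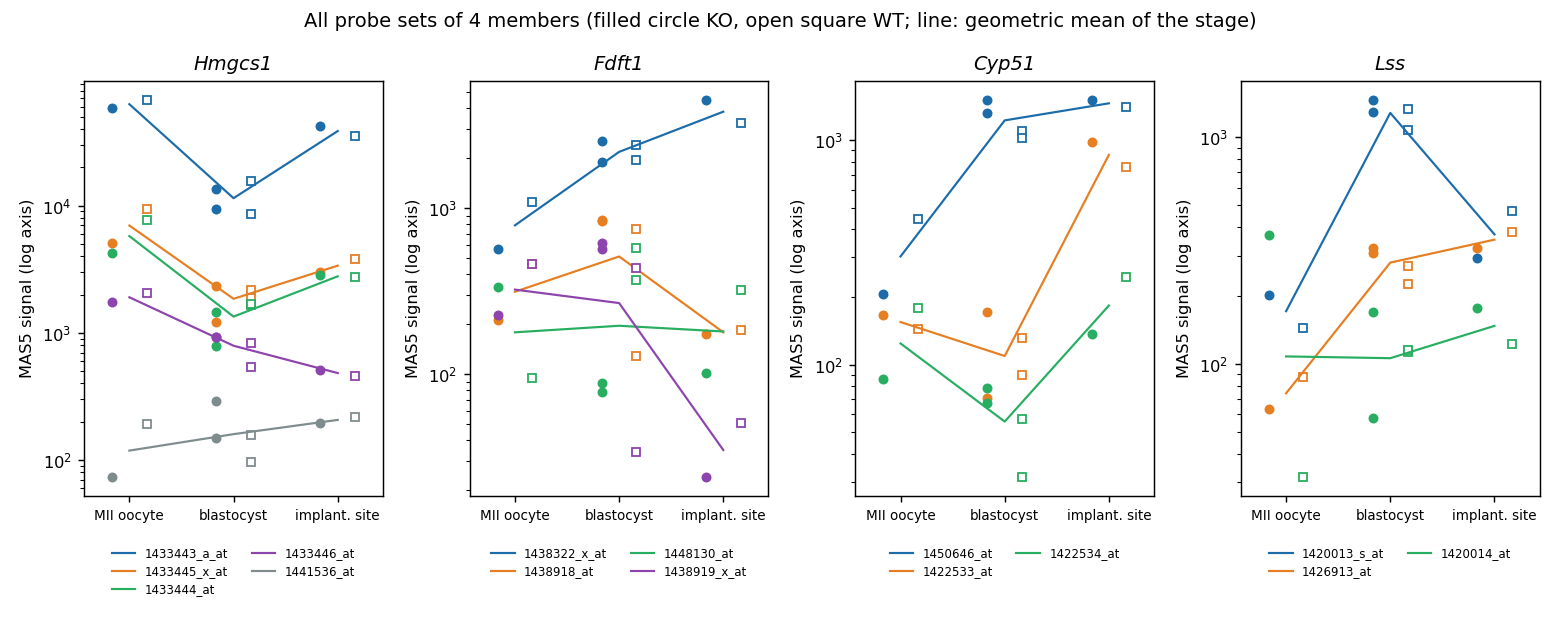
Signal (log axis) of every probe set of Hmgcs1, Fdft1, Cyp51 and Lss by stage, with filled circles for KO, open squares for WT and lines through the geometric mean of each stage. The 4 bright Hmgcs1 probe sets were all lower in blastocysts than in oocytes, whereas the Fdft1 probe sets ran apart.

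Sqle encodes squalene epoxidase, an oxygen-dependent and rate-limiting step. Its only probe set read 986 in KO and 560 in WT oocytes, 1257 and 1098 in KO and 1700 and 1295 in WT blastocysts, and 805 in KO and 1282 in WT implantation sites. Blastocysts lay above both oocyte arrays and overlapped the implantation sites. Its stage difference was the smallest in size of the 7 genes in 2 of the 3 comparisons, and none passed the test. Blastocyst against oocyte gave 0.83 ± 0.39 (adjusted p = 0.104, 95% interval -0.02 to 1.68), implantation site against blastocyst -0.38 ± 0.39 and implantation site against oocyte 0.45 ± 0.45. Without the oocyte KO array, blastocyst against oocyte was 1.46 and passed (adjusted p = 0.0251).

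Lss encodes lanosterol synthase, which closes the sterol rings. Its representing probe set read 202 in KO and 144 in WT oocytes, 1291 and 1461 in KO and 1327 and 1073 in WT blastocysts, and 293 in KO and 474 in WT implantation sites. The 4 blastocyst arrays stood above the other 4. In oocytes the KO value was below the control level of 334, and the WT value was just above that of 132, so 1 of the 2 oocyte arrays measured it. Blastocysts were higher than oocytes by 2.91 ± 0.44 (adjusted p = 0.000238), and implantation sites were lower than blastocysts by -1.78 ± 0.44 (adjusted p = 0.00918). The second difference was lost without the implantation site KO array (-1.28). It was also lost when the 2 Lss probe sets that passed the filter were averaged (-0.72, adjusted p = 0.223). A second probe set, 1426913_at, was below the control level on both oocyte arrays and both blastocyst KO arrays, so it gets no fold. Its signals as deposited gave 1.91 for blastocyst against oocyte (adjusted p = 0.0295) and 0.34 for implantation site against blastocyst. The third probe set did not reach the filter. Implantation sites against oocytes gave 1.13 ± 0.50 (adjusted p = 0.103), which passed with the mean of the 2 probe sets (1.69, adjusted p = 0.0255). There the signals of 1426913_at as deposited gave 2.25 (adjusted p = 0.0326 as its own row), with both oocyte arrays below the control level.

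Cyp51 encodes lanosterol 14-alpha demethylase, the cytochrome P450 that starts the conversion of lanosterol to cholesterol. It read 207 in KO and 443 in WT oocytes, 1505 and 1322 in KO and 1100 and 1025 in WT blastocysts, and 1510 in KO and 1408 in WT implantation sites. Both oocyte arrays were below the other 6, and blastocysts and implantation sites overlapped. The oocyte KO value was below the control level, so 1 of the 2 oocyte arrays measured it. Blastocysts were higher than oocytes by 2.01 ± 0.41 (adjusted p = 0.0018) and implantation sites were higher than oocytes by 2.27 ± 0.47 (adjusted p = 0.00291). Without the oocyte KO array these were 1.31 (adjusted p = 0.0336) and 1.57 (adjusted p = 0.028), and without the oocyte WT array 2.72 and 2.97. The probe sets disagreed here too. Probe set 1422533_at was below the control level on all 4 blastocyst arrays and on the oocyte KO array, and read 978 in KO and 756 in WT implantation sites, at least 2.74-fold above blastocysts (adjusted p = 0.00725), where the representing probe set gave 0.25 ± 0.41 on the log2 scale. The mean of the 2 probe sets that passed the filter gave 0.76 for blastocyst against oocyte (adjusted p = 0.164). For implantation site against blastocyst it gave 1.62 (adjusted p = 0.0139). Probe set 1422534_at did not reach the filter and is not in this mean.

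Insig1 encodes the endoplasmic reticulum protein that retains SCAP when sterols are plentiful, and its gene is itself a known SREBP target. Its only probe set read 14753 in KO and 26682 in WT oocytes, 2304 and 1486 in KO and 3098 and 2189 in WT blastocysts, and 3734 in KO and 3762 in WT implantation sites. Oocytes were the high stage on both arrays, and the 3 stages did not overlap. The log2 difference was -3.18 ± 0.32 for blastocyst against oocyte (adjusted p = 1.36e-05) and -2.40 ± 0.37 for implantation site against oocyte (adjusted p = 0.000442). Leaving out each array in turn kept the first between -3.44 and -2.92. Implantation sites against blastocysts gave 0.77 ± 0.32, which did not pass (adjusted p = 0.0812).

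**Figure D3:**
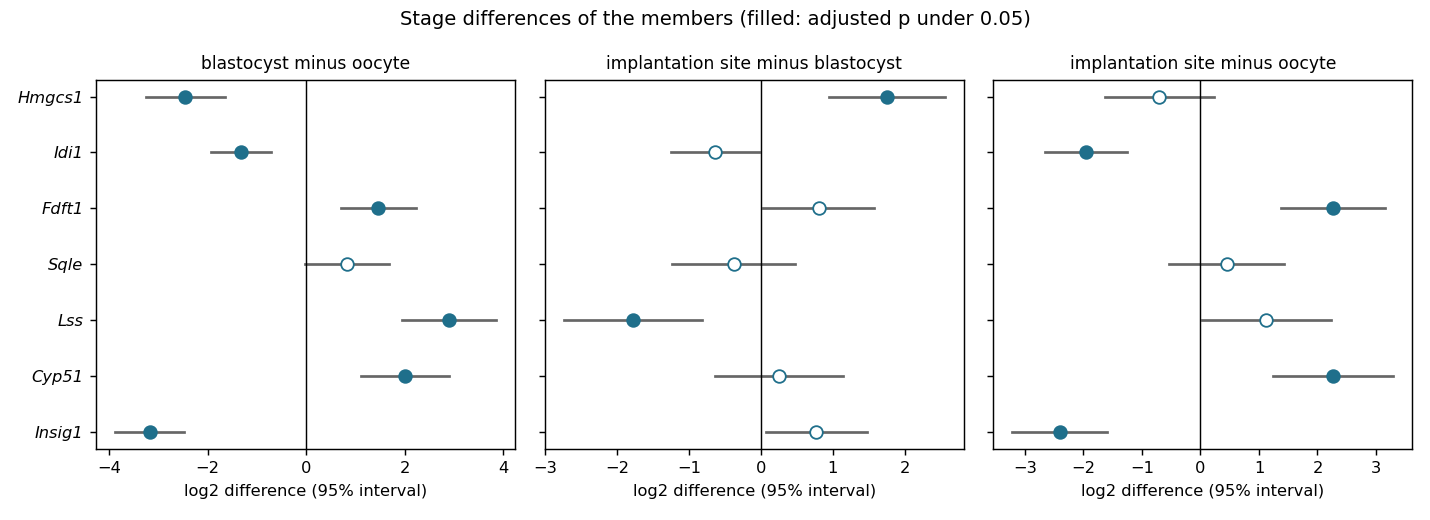
Log2 differences of the 7 genes between stages with 95% limma intervals, filled where the adjusted p was under 0.05, for blastocyst minus oocyte, implantation site minus blastocyst and implantation site minus oocyte. Hmgcs1, Idi1 and Insig1 lay left of 0 and Fdft1, Lss and Cyp51 right of 0 in the first panel.

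Between implantation site and blastocyst, 1 of the 7 genes was higher (Hmgcs1) and 1 lower (Lss), beside 15.3% higher and 20% lower among all genes. Over all genes these were 1798 higher and 2353 lower calls, and with a common median 2065 higher and 1598 lower. The arrays of these stages did not overlap for Hmgcs1, Fdft1 and Insig1 upwards and Idi1 and Lss downwards (23.6% and 32.6% of all genes). Between implantation site and oocyte, 2 were higher (Fdft1 and Cyp51) and 2 lower (Idi1 and Insig1), beside 20.5% and 16.6%. All members but Sqle separated these stages, 3 upwards and 3 downwards (34.4% and 34.3% of all genes). The medians of all genes were -0.36 and -0.06 on the log2 scale in these comparisons, and 0.01 and 0.13 with arrays scaled to a common median. Measured against the median of all genes, the blastocyst against oocyte differences were -3.61 for Insig1, -2.89 for Hmgcs1, -1.75 for Idi1, 0.40 for Sqle, 1.04 for Fdft1, 1.58 for Cyp51 and 2.47 for Lss. The 3 higher and 3 lower calls between blastocyst and oocyte also stood when the array labelled WT replicate 2 was dropped. Cell markers also differed between stages. Of 8 oocyte markers, 7 were above the control level on each oocyte array and 0 to 3 on the other arrays. Their summed signals were 67681 in KO and 103703 in WT oocytes, 1282 to 2515 in blastocysts, and 513 in KO and 823 in WT implantation sites. Trophectoderm markers summed to 58860 to 72871 in blastocysts, against 10538 in KO and 13760 in WT oocytes. Among them, Gata3 was lower in blastocysts (668 to 734) than in oocytes (995 in KO and 864 in WT), and Tfap2c overlapped. The part of these markers in the stage differences was not tested.

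Cumulus and granulosa cells surround the oocyte and make cholesterol for it. Their 8 markers summed to 2686 in KO and 2771 in WT oocytes, with 4 and 5 above the control level, and to 1403 to 3061 in blastocysts. Fshr and Cyp11a1 were below the control level on both oocyte arrays, Ptx3 and Hsd3b1 on the KO array and Inhba on the WT array. The part of these cells in the oocyte values was not tested.

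No member passed the test between KO and WT blastocysts. In limma on the 4 blastocyst arrays, 0 of 7 passed the test, and 0 passed at an unadjusted p under 0.05; over all genes 0.102% were higher and 0% lower. The log2 differences, KO minus WT, were -0.49 ± 0.35 for Insig1 (adjusted p = 0.514, 95% interval -1.29 to 0.30), 0.41 ± 0.33 for Cyp51 (adjusted p = 0.565, -0.34 to 1.16), -0.34 ± 0.33 for Sqle and -0.29 ± 0.29 for Idi1. Lss gave 0.20, Hmgcs1 -0.04 and Fdft1 0.02. With each probe set as its own row, 0 of 17 member probe sets passed, beside 0.0315% of all probe sets. Those of Fdft1 and Hmgcs1 ran apart. For Fdft1, 1438918_at gave 1.44, 1438919_x_at 2.275 and 1448130_at -2.47, the last below the control level on both KO arrays. For Hmgcs1, 1433444_at gave -0.64, 1433445_x_at -0.26 and 1433446_at 0.47. Scaling to a common median moved the median of all genes to -0.265, against -0.01, and put Lss at -0.051 and Fdft1 at -0.24. Cyp51 was higher in both KO arrays than in both WT arrays (groups apart and higher in 23.8% of all genes), and Sqle and Idi1 were lower in both (25.3%). The second Idi1 probe set, 1423804_a_at, overlapped (2230 and 1877 in KO, 2381 and 2103 in WT). The narrowest of the 7 intervals, that of Idi1, ran from -0.94 to 0.37.

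Without the array labelled WT replicate 2, which showed Gja1 at the KO level, 0 of 7 passed again. Insig1 was then -0.74 (adjusted p = 0.292), Sqle -0.53 (adjusted p = 0.423), Hmgcs1 -0.48 (adjusted p = 0.356), Idi1 -0.36, Fdft1 -0.13, Cyp51 0.36 and Lss 0.05. Over all genes, this left 294 higher and 22 lower calls, against 12 and 0 with all 4 arrays. In that fit the lone WT array was assumed to vary like the KO arrays. Markers of blood and endothelium differed between these groups: 2 and 3 of 7 were above the control level in KO and 2 in each WT array, and their summed signal was 8210 and 15625 in KO, against 1304 and 4811 in WT. Csf1r, the receptor for a macrophage growth factor, gave most of it, at 6134 and 11937 in KO, against 593 and 3881 in WT. Tyrobp, Ptprc, Pecam1 and Cdh5 also read higher in both KO arrays, and Kdr and Tek overlapped. Ptprc and Cdh5 were below the control level on every blastocyst array. The sums of inner cell mass markers also stood apart, at 18655 and 20855 in KO, against 35822 and 27113 in WT. On each array 7 or 8 of 8 were above the control level. The single markers were mixed: Sox2, Fgf4, Zfp42, Tdgf1 and Sall4 were lower in both KO arrays, and Nanog overlapped. Pou5f1 (1598 and 1315 in KO, 1215 and 997 in WT) and Esrrb (406 and 515 in KO, 398 and 292 in WT) were higher in both KO arrays. The 3′ to 5′ signal ratio of Actb was 25.7 and 39.0 in KO, against 69.3 and 69.1 in WT, and that of Gapdh 11.2 and 11.8 in KO, against 7.27 and 7.71 in WT. The part of these differences in the member values was not tested.

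**Figure D4:**
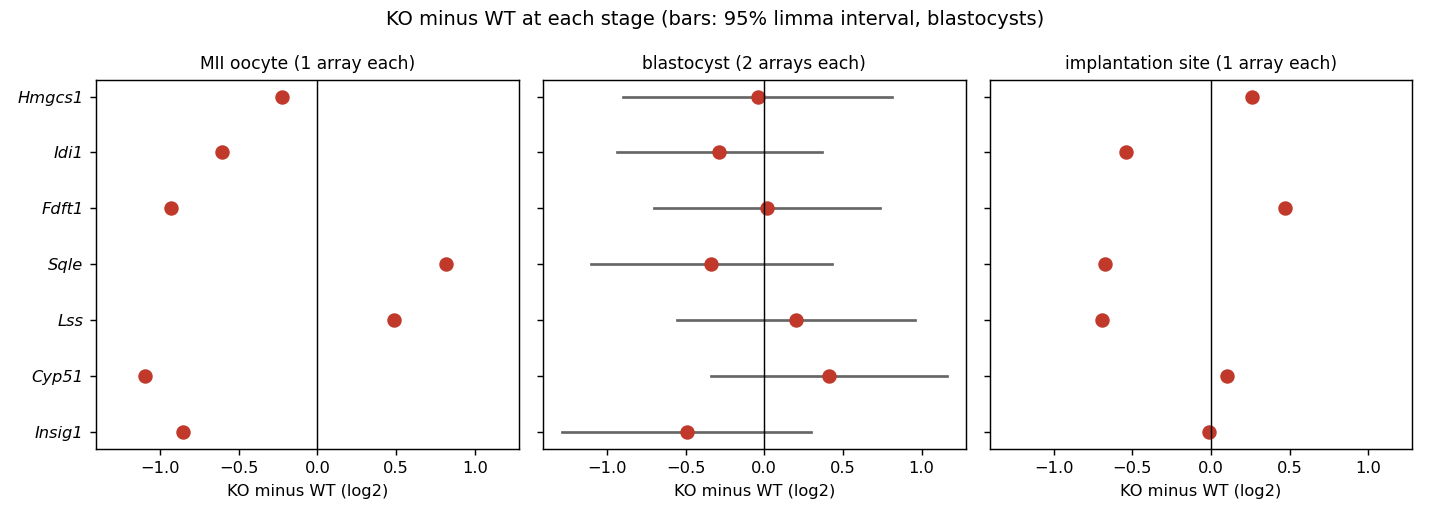
Log2 difference, KO minus WT, of the 7 genes in oocytes, blastocysts and implantation sites, with 95% limma intervals for blastocysts, the stage with 2 arrays per genotype. The oocyte KO values of Lss and Cyp51 were below the control level. Idi1 lay left of 0 in all 3 panels, and every blastocyst interval crossed 0.

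In oocytes, with 1 array per genotype, there is no replicate check. Cyp51 was the 1 member at least 2-fold apart, at 207 in KO and 443 in WT. Since the KO value was below the control level, it was lower at least 1.33-fold. Differences of that size were seen in 23.9% of all genes as higher in KO oocytes and in 12.3% as lower. The log2 differences were -0.93 for Fdft1, -0.86 for Insig1, -0.61 for Idi1, -0.22 for Hmgcs1 and 0.82 for Sqle; Lss gets no fold, being below the control level in KO and just above it in WT. Scaling decided some of these. With arrays scaled to a common median, which moved the median of all genes to -0.45 against 0.09, 1674 genes were 2-fold higher and 3441 lower, against 2809 and 1444 as deposited, and Fdft1 was -1.47, Insig1 -1.40, Idi1 -1.15, Hmgcs1 -0.77 and Sqle 0.27. After quantile normalization Hmgcs1 turned to 0.48, and Idi1 was -0.17. The oocyte KO array stood apart in RNA measures: its 3′ to 5′ signal ratio was 6.68 for Actb and 2.41 for Gapdh, against 33.4 and 10.1 on the WT array, and its brightest control was 334, against 132. Their part in the oocyte differences was not tested.

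In implantation sites, 0 of the 7 genes were 2-fold apart, beside 6.12% higher and 15.9% lower among all genes, again with 1 array per genotype and no replicate check. The log2 differences were -0.69 for Lss, -0.67 for Sqle, -0.54 for Idi1, 0.47 for Fdft1, 0.26 for Hmgcs1, 0.10 for Cyp51 and -0.01 for Insig1. Over all genes 719 were 2-fold higher and 1862 lower, and with a common median 1730 were higher and 1086 lower. After quantile normalization Hmgcs1 was -0.20, and with a common median Insig1 was 0.40.

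Over the 3 stages together, with stage as a term, 0 of 7 members passed a test of the KO effect, 0 had an unadjusted p under 0.05, and 0% of all genes were called in either direction. By the representing probe sets, Idi1 was the 1 member lower in KO at all 3 stages with no overlap within a stage. Of all genes, 5.94% showed this pattern in that direction and 4.54% in the other. The second Idi1 probe set, 1423804_a_at, overlapped in blastocysts and gave -0.28 as its own row (adjusted p = 0.789). The representing probe set of Idi1 gave a log2 difference of -0.43 ± 0.23 (unadjusted p = 0.0827, adjusted p = 0.723). That of Insig1 gave -0.46 ± 0.26 (adjusted p = 0.732). The other 5 lay between -0.13 and 0.05. With the array labelled WT replicate 2 left out, Idi1 was -0.49 and Insig1 -0.56, and neither passed (adjusted p = 0.853 for both).

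The rest of the pathway was read from a list of 39 genes, of which 30 were tested and the rest were not analysed here. Between blastocyst and oocyte, 10 of the 30 were higher and 4 lower, beside 26.9% and 18.6% of all genes, with a median log2 difference of 0.30 against 0.43 for all genes. From mevalonate to squalene 2 of 5 were higher, from squalene to cholesterol 4 of 8 were higher and 2 lower, among genes that control the pathway 1 of 6 was higher and 1 lower, among uptake and transport genes 2 of 9 were higher, and of the export genes 1 was higher and 1 lower.

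The calls on 8 of these 14 genes stood when any 1 array was left out. Srebf1, one of the SREBP genes, was higher in blastocysts at 1639 and 1905 in KO and 2057 and 2528 in WT, against 165 in KO and 262 in WT oocytes (3.27 ± 0.36, adjusted p = 2.74e-05). The oocyte KO values of Srebf1, Ebp and Abca1 were below the control level, so 1 of 2 oocyte arrays measured each. Srebf2, the SREBP gene most tied to cholesterol synthesis, gave 0.07 ± 0.48 and did not pass. Dhcr7, which makes cholesterol from its immediate precursor, read 2650 and 2081 in KO and 3127 and 3915 in WT blastocysts, against 677 in KO and 682 in WT oocytes (2.08 ± 0.33, adjusted p = 0.00036). Ebp, a sterol isomerase, was higher as well (2.05 ± 0.44, adjusted p = 0.00247), as was Abca1, a cholesterol exporter (1.91 ± 0.40, adjusted p = 0.00223). Pmvk, phosphomevalonate kinase, was below the control level on both oocyte arrays and at least 6.54-fold higher in blastocysts (adjusted p = 5.8e-05). Its log2 difference was 4.48, and 5.51 without the oocyte KO or 3.46 without the oocyte WT array. Stard3, a late endosomal sterol transporter, was called higher too (3.04 ± 0.70, adjusted p = 0.00403). It was below the control level on both oocyte arrays and on the first blastocyst KO array, so it gets no fold. Sc5d, a sterol desaturase, went the other way, at 96.2 and 281 in KO and 298 and 169 in WT blastocysts, against 1326 in KO and 1479 in WT oocytes (-2.87 ± 0.62, adjusted p = 0.0028), with 1 of the 4 blastocyst arrays above the control level. Abcg1, another exporter, was also lower (-2.80 ± 0.54, adjusted p = 0.00128; -2.13 without the oocyte KO array and -3.46 without the oocyte WT array), with 2 of the 4 blastocyst arrays above it.

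The other 6 calls between blastocyst and oocyte missed the threshold when some single array was left out. Lbr (1.49) and Npc2 (1.25) were lost without the oocyte KO array (adjusted p = 0.137 and 0.152), and Mbtps2 (-1.56) without the oocyte WT array (adjusted p = 0.109). Hsd17b7 (-1.21) was lost without the oocyte WT array (-0.46, adjusted p = 0.448) or the first blastocyst KO array (-1.13, adjusted p = 0.0581). Fdps, farnesyl diphosphate synthase, was called higher (adjusted p = 0.0349). It was below the control level on both oocyte arrays and on 3 of 4 blastocyst arrays, so it gets no fold. Its measured log2 difference of 2.69 became 1.81 without the oocyte WT array (adjusted p = 0.277), 2.91 and 2.41 without either blastocyst KO array (adjusted p = 0.0534 and 0.113) and 2.31 without the array labelled WT replicate 2 (adjusted p = 0.102). Tm7sf2 was below the control level on both oocyte arrays and higher at least 3.46-fold (adjusted p = 0.0301). Its measured 2.66 hardly moved without either oocyte array (2.67 and 2.65), though the adjusted p was then 0.125 and 0.145, and it was 2.38 and 2.31 without either blastocyst KO array (adjusted p = 0.0836 and 0.0908).

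**Figure D5:**
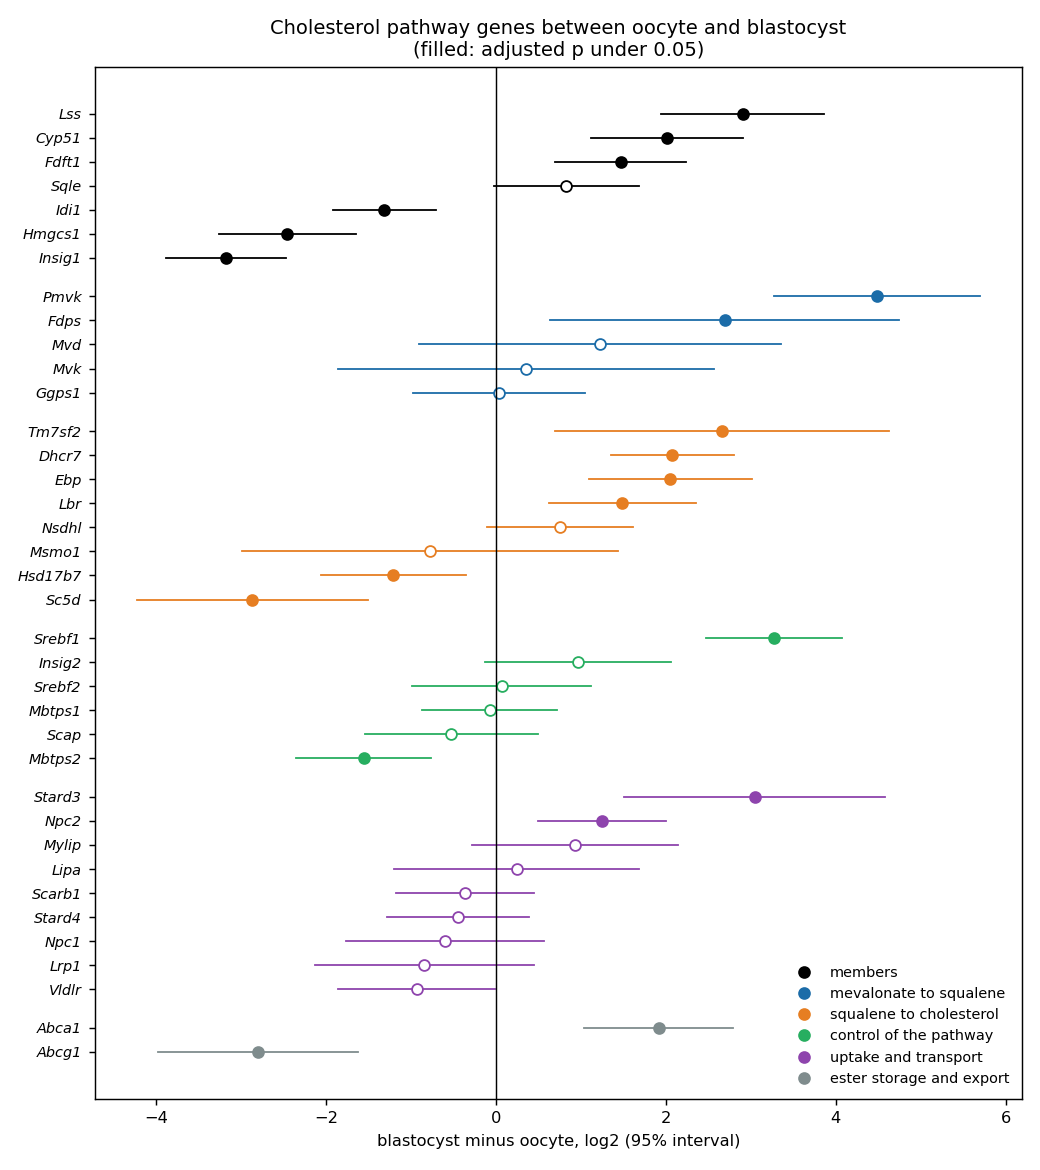
Log2 difference, blastocyst minus oocyte, with 95% limma intervals for the 7 members and the 30 other pathway genes tested, coloured by step and filled where the adjusted p was under 0.05. Filled points lay on both sides of 0; Srebf1 lay at 3.27 and Insig1 at -3.18.

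Between implantation site and blastocyst 7 of the 30 listed genes were higher and 5 lower, beside 15.3% and 20% of all genes, with a median of -0.18 against -0.36 for all genes. Vldlr, a lipoprotein receptor, read 8674 in KO and 6185 in WT implantation sites, against 255 and 337 in KO and 174 and 354 in WT blastocysts (4.76 ± 0.42, adjusted p = 2e-05). Only 1 of the 4 blastocyst arrays had it above the control level. Abca1 was higher at 3315 in KO and 4700 in WT sites, against 597 and 1219 in KO and 910 and 1014 in WT blastocysts (2.12 ± 0.40, adjusted p = 0.00209). Srebf1 (-2.25 ± 0.36, adjusted p = 0.000859) and Dhcr7 (-2.03 ± 0.33, adjusted p = 0.000923) were lower. These 4 calls stood when any 1 array was left out.

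The other 8 calls between implantation site and blastocyst each missed the threshold without some single array, in several cases with a difference as large or larger. Without the implantation site KO array, Nsdhl (-1.54) was -1.07 (adjusted p = 0.156), Hsd17b7 (1.44) was 0.89 (adjusted p = 0.237), Scap (-1.91) was -0.78 (adjusted p = 0.188) and Abcg1 (2.17) was 2.00 (adjusted p = 0.103). Ggps1 (1.55), Insig2 (1.61), Mylip (1.74) and Npc1 (-1.70) were lost without either implantation site array, with adjusted p = 0.09 and 0.154, 0.0612 and 0.251, 0.0519 and 0.288, and 0.162 and 0.0599, and also without the array labelled WT replicate 2 (adjusted p = 0.057, 0.053, 0.0543 and 0.0515). The first blastocyst KO array decided Ggps1, Mylip and Npc1 in the same way (adjusted p = 0.0583, 0.0697 and 0.0771), and the second decided Insig2 and Npc1 (adjusted p = 0.0703 and 0.0693).

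Between implantation site and oocyte 8 of the 30 were higher and 3 lower, beside 20.5% and 16.6% of all genes, with a median of 0.29 against -0.06 for all genes. Abca1 (4.04 ± 0.46, adjusted p = 6.77e-05), Vldlr (3.83 ± 0.49, adjusted p = 0.000126) and Pmvk (at least 2.35-fold, adjusted p = 0.0034) were higher, and Scap was lower (-2.44 ± 0.54, adjusted p = 0.00406), with calls that stood without any 1 array; Scap ranged from -3.57 without the implantation site WT array to -1.30 without the KO array. Insig2 (2.57) was lost without the implantation site WT array (adjusted p = 0.0591) and Npc2 (1.76) without the oocyte KO array (adjusted p = 0.057). Mylip (2.68) was lost without the WT array of either stage (adjusted p = 0.0715 and 0.0808), and Npc1 (-2.30) without the oocyte WT or implantation site KO array (adjusted p = 0.0626 and 0.0578). Sc5d (-2.60) was lost without either oocyte array or the implantation site WT array (adjusted p = 0.068, 0.0793 and 0.089), and Ggps1 (1.59) without any of the 4 arrays of these stages (adjusted p = 0.0758 to 0.175). Stard3, below the control level on both oocyte arrays and at least 1.65-fold higher, had a measured log2 difference of 2.38 (adjusted p = 0.0377). It was 2.77 and 1.99 without either oocyte array (adjusted p = 0.0564 and 0.155) and 1.53 without the implantation site KO array (adjusted p = 0.298). Without the second blastocyst KO array or the array labelled WT replicate 2 the difference was the same 2.38, with adjusted p = 0.0597 and 0.0565.

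No other pathway gene passed the test between KO and WT blastocysts or over the 3 stages. In blastocysts 3 of the 30 were higher and 2 lower at an unadjusted p under 0.05, beside 8.77% and 6.71% of all genes. Tm7sf2, a sterol reductase, read 1440 and 1611 in KO and 437 and 275 in WT blastocysts (2.14 ± 0.42, adjusted p = 0.108). Scap (0.86, adjusted p = 0.253) and Ebp (0.80, adjusted p = 0.31) were the other 2 with positive differences, and Lbr (-0.73, adjusted p = 0.318) and Abcg1 those with negative ones; Abcg1 was below the control level on both KO arrays and lower at least 1.19-fold (adjusted p = 0.282). In oocytes 7 of the 30 read at least 2-fold higher and 3 lower in KO, beside 23.9% and 12.3% of all genes, and 2 of the 7 (Pmvk and Fdps) were below the control level on both arrays. In implantation sites 1 read higher and 5 lower, beside 6.12% and 15.9%. Of the 5, Mvk, Fdps and Tm7sf2 were below the control level in KO, which bounds them at 1.84-fold, 1.67-fold and 2.51-fold.

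Across the 8 arrays, the genes outside the pathway list whose log2 signal tracked the mean of the 7 members most closely were Pnpla7 (Pearson r = 0.91), Rnf167 (0.87), Ing2 (0.865), Dnajb12 (0.85) and Gnb1 (0.84), with 2 clone names passed over. That mean ranged only from -0.23 on the oocyte KO array to 0.21 on the first blastocyst WT array on the log2 scale. The points share their stages and arrays, so these values are a description.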

How the data were processed

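Polyadenylated RNA of mouse MII oocytes, blastocysts and implantation sites, connexin 43 KO and WT, was hybridised to 8 Affymetrix arrays. Values are linear signal intensity as deposited by the authors, made with MAS5 per the submitters' processing notes; no version is named there. The trimmed mean was 500 on every array. No detection calls were used, so the brightest Bacillus control probe set of each array served as a strict control level, which assumes that no Bacillus RNA was added. For arrays, precision is limited by their number.

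Probe sets annotated to a single gene (34945 of 45101) took their gene from the platform annotation, updated with RefSeq symbols (GRCm38.p6); 932 with several genes, 9160 with none and 64 controls were left out. A gene was represented by its brightest probe set (mean log2 over the arrays), and those in the upper 50% by that mean (at least 151) were kept, leaving 11746 genes. limma 3.58.1 in R 4.3.3 (lmFit, eBayes with an intensity trend; two-sided tests, called at a Benjamini-Hochberg adjusted p under 0.05) compared KO with WT on the 4 blastocyst arrays, and stages and genotype on all 8 arrays. Where 1 array stood per genotype, called means at least 2-fold apart, with no test. The fits were tested on simulated data. Named genes were the 7 members, pathway genes named by rule or called in a tested comparison, and the 5 most alike in pattern. The members and lists were chosen with earlier results of these data known. Alternatives were quantile normalization, a common median, a pseudocount of 50, no filter, the mean of all probe sets, no intensity trend, the replicate block and leaving out each array. Fitting each probe set as its own row was added after the values were seen. Figures used Python 3.11.15 and matplotlib 3.10.9.

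The replicate numbers of the blastocyst arrays are not stated to pair KO with WT: replicate 1 minus replicate 2 in KO and the same in WT correlated at r = 0.0182 over 11746 genes (genes are not independent).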

Additional observations from a re-analysis of the deposited data

Results flagged for a closer look

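By the signals as deposited, for 5 of the 7 genes the KO minus WT difference had opposite signs in 2 stages, with every array of one stage on one side and every array of the other on the other side. Of all 11746 genes, 68.5% showed such a pattern, which 1 array per genotype makes common. The difference between stages was not tested in any of them because 2 of the stages have a single array of each genotype. Sqle was higher in KO oocytes (0.82 on the log2 scale) and lower in KO blastocysts (-0.34) and implantation sites (-0.67). Cyp51 was lower in KO oocytes, where the KO value was below the control level and the fold is at least 1.33 (signals as deposited gave -1.10), and higher in KO blastocysts (0.41) and implantation sites (0.10). Fdft1 was lower in KO oocytes (-0.93) and higher in KO implantation sites (0.47), and Hmgcs1 likewise (-0.22 and 0.26). For Lss the signals as deposited gave 0.49 in oocytes, but the KO value was below its control level, so no direction can be read there; in KO implantation sites it was lower (-0.69). The sign of Hmgcs1 turned in both stages after quantile normalization (0.48 and -0.20), and the Lss value in oocytes was -0.06 after either scaling. The oocyte KO array stood apart in its 3′ to 5′ ratios, and the part of this in these differences was not tested.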

How the results depend on the processing

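Over all alternatives, 1301 differences of single genes were recomputed. Of these, 89 called ones no longer passed, 10 newly passed, and 36 in the tested comparisons turned in sign, 1 of them a called difference. The 1165 counted as unchanged kept their side of the threshold and, in the tested comparisons, their direction. Where 1 array stood per genotype, uncalled differences that turned in sign by less than 1 on the log2 scale were counted among them. Hmgcs1 in oocytes was such a case (-0.22 as deposited, 0.48 after quantile normalization). There, 1 further uncalled difference turned in sign by at least 1. Of 308 counts of called genes, 286 stayed within 1.5 times. The called difference that turned was Fdft1 for implantation site against oocyte, at -0.43 with the mean of all probe sets. The uncalled ones that turned in the tested comparisons follow. With that mean, Fdft1 for implantation site against blastocyst was -0.94, Hmgcs1 for KO against WT blastocysts 0.056, Cyp51 for the KO effect over stages 0.059, and Srebf2 0.12 in blastocysts, -0.15, -0.13 and -0.28 in the stage comparisons. After quantile normalization Hmgcs1 was 0.16 in blastocysts and 0.15 over stages, and Srebf2 -0.18 for blastocyst against oocyte. With a common median Fdft1 was -0.24 and Lss -0.051 in blastocysts, Lss -0.11 over stages, and Srebf2 -0.10 for blastocyst against oocyte. Leaving out 1 array at a time, the KO difference in blastocysts ranged from -0.48 to 0.40 for Hmgcs1 and from -0.20 to 0.24 for Fdft1; the KO effect over stages ranged from -0.18 to 0.17 for Hmgcs1, -0.45 to 0.048 for Sqle, -0.30 to 0.17 for Fdft1, -0.17 to 0.31 for Cyp51 and -0.10 to 0.30 for Lss. Srebf2 for blastocyst against oocyte ranged from -0.12 to 0.28 and Sqle for implantation site against oocyte from -0.18 to 1.08. The cause was not tested.

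Counts moved as follows. With the mean of all probe sets, members higher in blastocysts than oocytes were 1 (against 3), and members lower in implantation sites than blastocysts 0 (against 1). Quantile normalization made that second count 2, and leaving out the implantation site KO array made it 0, so that it ranged from 0 to 1 without 1 array. Members at least 2-fold lower in KO oocytes were 2 after quantile normalization, 4 with a common median, and 0 with a pseudocount of 50 or the mean of all probe sets (against 1). Other pathway genes in oocytes were 4 higher after quantile normalization (against 7) and 8 lower with a common median (against 3). In implantation sites they were 3 lower after quantile normalization (against 5), 3 higher and 3 lower with a common median (against 1 and 5), and 0 higher with a pseudocount of 50. With that pseudocount 8 were lower in implantation sites than blastocysts (against 5). Without 1 array, they ranged from 2 to 5 lower in blastocysts than oocytes, from 2 to 7 higher and 3 to 7 lower in implantation sites than blastocysts, and from 5 to 8 higher and 1 to 3 lower in implantation sites than oocytes.

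With the replicate block in blastocysts, 0 members were called in either direction, and over all genes 91 were higher and 1 lower, against 12 and 0. The labels do not say that the numbers mark pairs, so the block has no basis in the design. Other settings ended some calls on pathway genes: a common median for Lbr and Npc2 (blastocyst against oocyte) and Nsdhl and Npc1 (implantation site against blastocyst), quantile normalization for Npc1 there and Ggps1 (implantation site against oocyte), the mean of all probe sets for Ggps1 in both comparisons and Hsd17b7 (implantation site against blastocyst), and no intensity trend for Tm7sf2, Hsd17b7, Mylip and Ggps1. Over all genes, limma without the intensity trend called 0 in the blastocyst KO against WT comparison, and the mean of all probe sets 1 higher. A common median called 59 higher and 14 lower there, a pseudocount of 50 called 23 higher, and the fits without 1 array called 23 higher without KO replicate 1, 3 higher and 1 lower without WT replicate 1, and 294 higher and 22 lower without the array labelled WT replicate 2. After quantile normalization, 1853 genes were 2-fold higher and 2125 lower in KO oocytes (against 2809 and 1444), and 870 and 1198 in KO implantation sites (against 719 and 1862).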

Other observations

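The following likenesses were looked up after the values were seen and are descriptions across 8 arrays that share their stages. The genes outside the pathway list closest to Insig1 by Pearson correlation were Tcf20 (0.995), Hus1 (0.994), Osbpl11 (0.993), Cnot7 (0.993) and Arpc5l (0.992). Those closest to Lss were St14 (0.998), Araf (0.994), Ccdc93 (0.993), Stard10 (0.992) and Npl (0.991). Osbpl11 belongs to the oxysterol-binding protein family and Stard10 to the family of lipid transfer proteins that also holds Stard3 and Stard4.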
